A study of Mus musculus with 12 samples.

Results

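The genes described here carry out mitosis. They encode the kinases and cyclins that drive a cell into division, the spindle assembly checkpoint, the kinetochore, the chromosomal passenger complex, the machinery that holds and then separates sister chromatids, the condensin complex and the proteins of the spindle midzone and cleavage furrow. A list of 54 such genes was matched by symbol to a table of 30399 genes, and 52 of them were found. Bub3 and Prc1 were not analysed here. All 52 passed the filter on low values, a mean of at least 1 normalized read count.

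The study profiled mouse lung tumors, made with nonviral CRISPR/Cas9 mutagenesis, and normal mouse lung by poly-A RNA sequencing. The labels put 5 samples in normal lung and 7 in tumor. They give no strain, age, sex or genotype, and do not say which genes were edited in which tumor or whether the normal lungs carried any edit. The titles carry a number that tumors 3 and 4 share (159) and that tumors 5, 6 and 7 share (201). What the number stands for is not given, so these tumors may not be independent, and p-values measure only the spread between these samples. Tumors 1 and 7 have the Spanish word for trachea in their titles, and normal lung 5 and tumors 3 to 6 the word for lung.

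In dividing cells, transcription of most mitotic genes rises late in the cell cycle and falls again after division, and the proteins are then destroyed through the anaphase-promoting complex. Cells at rest repress these genes through the DREAM complex, which holds a retinoblastoma-family pocket protein and binds a short promoter element called the CHR, often close to CCAAT boxes. When cells re-enter the cycle, the pocket protein leaves, and MYBL2 and later FOXM1 join the core of the complex. Normal adult lung holds few dividing cells.

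The reads counted in genes numbered 11126432 to 17032234 per normal lung library and 13093843 to 24217633 per tumor library. A count of 3 reads corresponds to at most 4.85 normalized counts in a normal lung library and 3.57 in a tumor library, so the lowest normal lung values below rest on a few reads (these floors cover counting error only). Marker genes were read next to the tissue labels. The 8 neuroendocrine markers, which pulmonary neuroendocrine cells and tumors express, were all higher in tumor, with a summed level of 37438 to 142398 normalized counts against 255 to 416 in normal lung, and the 8 lung epithelial markers were all lower, at 1182 to 4011 against 272209 to 484583. In bulk RNA, a different number of cells of a type and a different amount of RNA per cell cannot be told apart, and this holds for dividing cells too. Tumor 7 stood apart from the other tumors. Its 7 leukocyte markers summed to 6064 normalized counts, within the 5686 to 9195 of normal lung and above the 98.2 to 1377 of the other tumors, and its 4 cardiac muscle markers to 29618, against 264 to 1954.

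Promoter sequences of the genes on which the results turn are shown first. They are the kinase Cdk1, its cyclin partners Ccnb1 and Ccnb2, which changed by different amounts, and the separase and securin genes Espl1 and Pttg1, which changed in opposite directions. RefSeq promoters (build GRCm38.p6, 250 bases before to 50 after the transcription start, on the gene's strand) were matched for 45 of the 52 genes. Capitals mark the CHR hexamers TTTGAA and TTCGAA and the CCAAT box, each on either strand. Other forms of the CHR were not searched for, so a window without these hexamers may still hold one. A CCAAT box on the other strand reads ATTGG here.
Cdk1, chr10:69352863-69353162, minus strand: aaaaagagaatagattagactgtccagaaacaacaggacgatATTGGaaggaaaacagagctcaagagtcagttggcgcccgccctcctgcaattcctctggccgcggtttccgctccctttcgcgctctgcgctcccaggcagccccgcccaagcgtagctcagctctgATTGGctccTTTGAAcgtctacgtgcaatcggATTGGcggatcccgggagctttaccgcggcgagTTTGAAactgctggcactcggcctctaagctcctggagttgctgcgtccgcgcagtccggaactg
Ccnb1, chr13:100786437-100786736, minus strand: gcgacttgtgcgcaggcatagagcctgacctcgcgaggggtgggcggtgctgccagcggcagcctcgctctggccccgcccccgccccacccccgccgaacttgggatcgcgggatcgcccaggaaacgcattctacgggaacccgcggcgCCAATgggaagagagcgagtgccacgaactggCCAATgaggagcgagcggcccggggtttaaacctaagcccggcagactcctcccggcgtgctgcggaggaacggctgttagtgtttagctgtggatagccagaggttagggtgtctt
Ccnb2, chr9:70421505-70421804, minus strand: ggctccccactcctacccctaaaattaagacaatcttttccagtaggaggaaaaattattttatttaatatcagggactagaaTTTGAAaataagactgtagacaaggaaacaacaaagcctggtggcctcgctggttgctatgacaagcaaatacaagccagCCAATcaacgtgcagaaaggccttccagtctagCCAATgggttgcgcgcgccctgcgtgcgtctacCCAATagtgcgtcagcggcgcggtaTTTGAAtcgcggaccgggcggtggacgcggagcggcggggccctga
Espl1, chr15:102296043-102296342, plus strand: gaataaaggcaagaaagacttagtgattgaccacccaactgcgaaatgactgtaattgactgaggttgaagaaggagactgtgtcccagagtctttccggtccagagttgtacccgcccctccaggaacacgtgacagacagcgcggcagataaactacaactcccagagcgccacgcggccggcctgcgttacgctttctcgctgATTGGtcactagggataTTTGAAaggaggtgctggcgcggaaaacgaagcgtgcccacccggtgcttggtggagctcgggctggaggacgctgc
Pttg1, chr11:43425932-43426231, minus strand: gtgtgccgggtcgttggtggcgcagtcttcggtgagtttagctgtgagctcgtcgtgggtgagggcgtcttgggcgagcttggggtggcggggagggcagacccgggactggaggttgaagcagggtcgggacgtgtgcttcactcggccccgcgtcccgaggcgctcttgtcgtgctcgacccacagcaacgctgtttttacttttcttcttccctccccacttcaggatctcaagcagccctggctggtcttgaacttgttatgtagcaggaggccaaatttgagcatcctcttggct
Over all annotated genes with a promoter in that table, 21.7% held TTTGAA or TTCGAA and 41.1% held CCAAT in at least 1 listed promoter. Of the 45 mitotic genes, 29 (64.4%) held TTTGAA or TTCGAA and 33 (73.3%) a CCAAT box. Both were held by 25 (55.6%), against 8.61% of all genes. Ccnb2 and Cdk1 each held 2 hexamers and 3 CCAAT boxes, Espl1 1 of each, and Ccnb1 2 CCAAT boxes with neither hexamer. The Pttg1 window held none of the 3 motifs, which says only that these letters are not in that window. The windows of Birc5, Cenpp, Cenpt, Mad2l1, Ncaph, Nuf2 and Plk4, which all rose in tumors, held none either. These are matches of letters, not binding sites, and RefSeq starts may not be the starts used in these tissues.

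By limma, tumors had higher values of 51 genes of the 52 and a lower value of 1, Pttg1, at an adjusted p under 0.05. Over all 23674 genes tested, 31.4% were called higher and 30.1% lower. In the 51 genes every tumor lay above every normal lung, as in 20.1% of all genes, and in Pttg1 every tumor lay below, as in 18.4%. The median log2 fold change of the 52 genes was 3.92, against 0.04 over all genes tested, and 44 of them exceeded the 90th percentile of all genes, 2.42. Expressed as a ratio of group means, the 51 genes rose between 1.77-fold (Zwint) and 78.9-fold (Cdc25c), with a median of 16.4-fold. The log2 fold change was above 4 in 25 genes, between 2 and 4 in 22 and below 2 in 4. Because 1 was added before taking logs, every log2 fold change printed here understates the change of genes with low normal lung values.

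**Figure D1:**
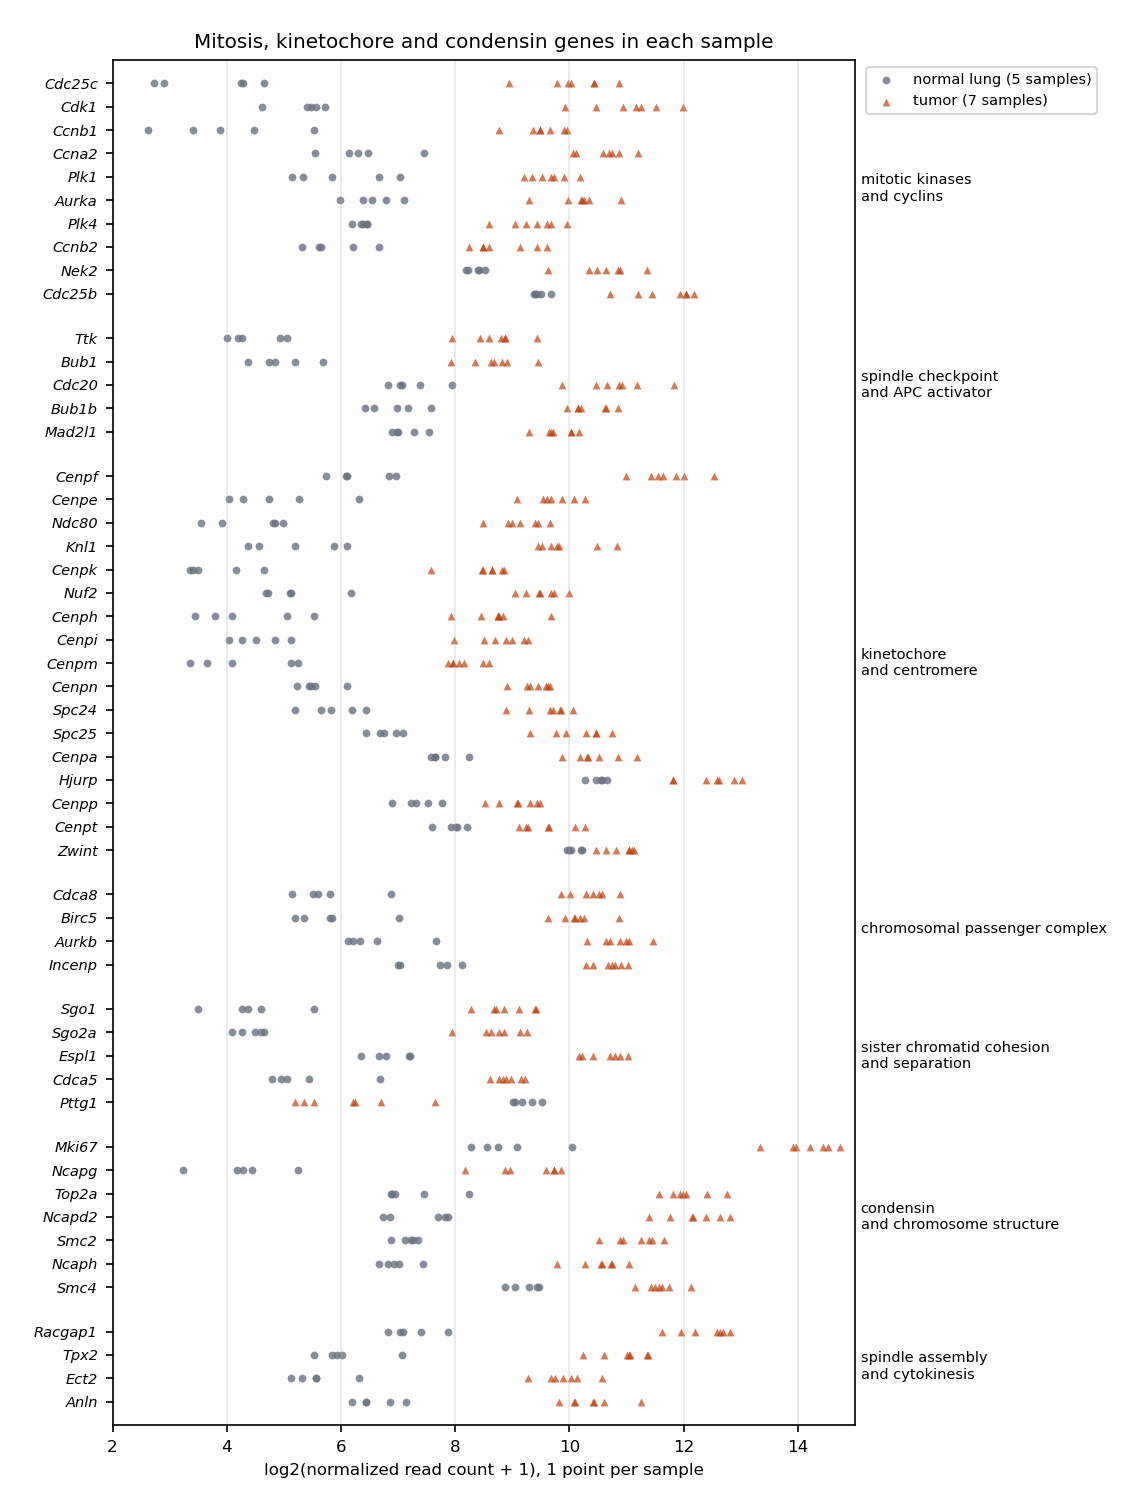
Normalized read counts of the 52 genes on a log2 scale (x axis), with 1 grey point for each of 5 normal lungs and 1 orange triangle for each of 7 tumors, grouped by role. The triangles lie right of all grey points in 51 rows, and left of them in the row of Pttg1.

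**Figure D2:**
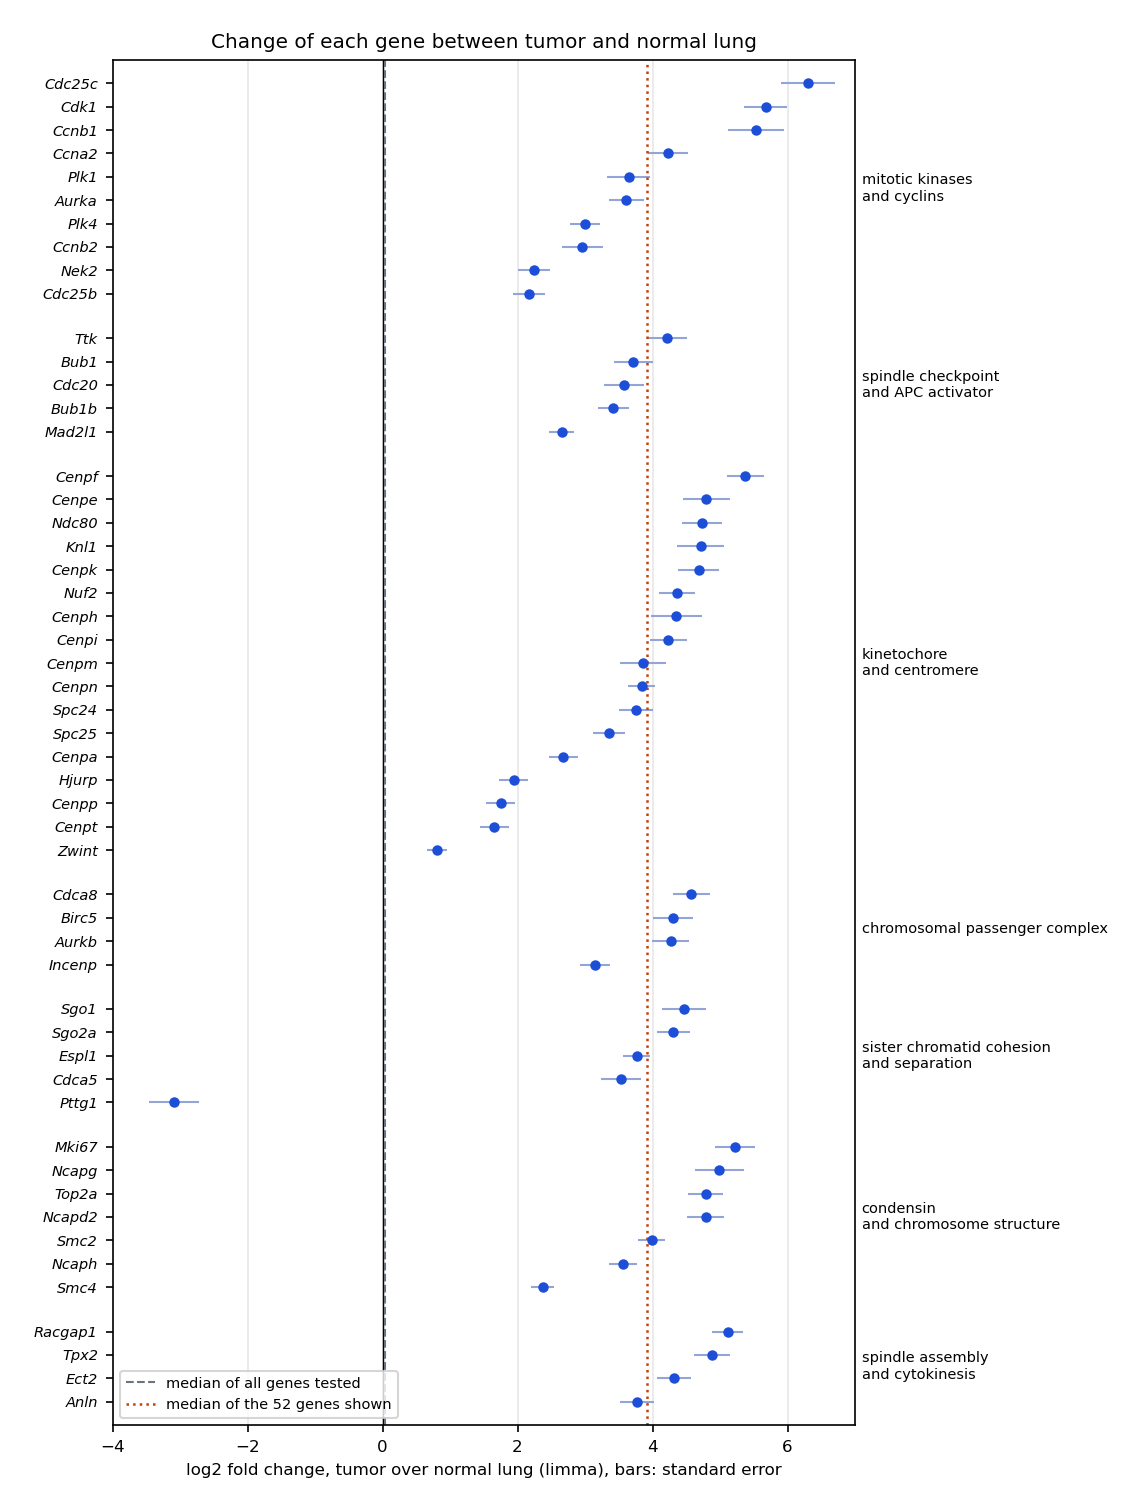
Log2 fold change between tumor and normal lung from limma (x axis) with its standard error for each of the 52 genes, grouped by role. Points run from -3.09 (Pttg1) to 6.30 (Cdc25c), and the dotted line marks their median of 3.92 beside the dashed line at 0.04, the median of all genes tested.

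All 10 mitotic kinases, cyclins and CDC25 phosphatases were higher in tumor, with a median log2 fold change of 3.63. Cdk1 (ENSMUSG00000019942), the kinase whose activation starts mitosis, stood at 46.4, 23.7, 51.7, 43.7 and 41.4 normalized counts (normal lungs 1 to 5, the order used throughout). In tumors it ran from 965 in tumor 7 over a median of 2285 to 4081 in tumor 2. The groups did not overlap, with a limma log2 fold change of 5.68, an SE of 0.32 and an adjusted p of 8.77e-09. Tumors differed among themselves by 4.23-fold in Cdk1, and by 2.88-fold without tumor 7.

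The B-type cyclins, which activate CDK1, did not change alike. Ccnb1 (ENSMUSG00000041431) had 5.16, 9.68, 45.2, 21.2 and 13.8 normalized counts in normal lung. Its tumor values ran from 436 over a median of 719 to 994. Its change was 5.53 (log2, SE 0.41, adjusted p = 1.02e-07). Ccnb2 (ENSMUSG00000032218) had 73.5, 38.7, 100.13, 49.4 and 48.3 in normal lung and, among tumors, from 299.95 over a median of 383 to 780, changing by 2.96 (log2, SE 0.30, adjusted p = 2.28e-06). Within samples, the log2 ratio of Ccnb1 to Ccnb2 averaged -1.91 over 5 normal lungs (-3.60 to -1.13) and 0.66 over 7 tumors (-0.26 to 1.40), with no overlap. The difference of 2.57 had an exact two-sided permutation p of 0.00253 (adjusted 0.00505 over 10 pairs), where 0.00253 is the smallest p that the 792 possible assignments allow. Such ratios are not corrected for transcript length, so only their difference between groups is read. Ccnb2 also had its highest value in tumor 1, which was the highest for no other gene that rose. Its lowest was in tumor 4, where most of the genes that rose were lowest in tumor 7.

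The CDC25 phosphatases remove the inhibitory phosphates from CDK1. Cdc25c (ENSMUSG00000044201) had 18.1, 6.45, 24.2, 5.64 and 18.4 normalized counts in normal lung, against 493 to 1864 in tumors, with a median of 1041, and its change of 6.30 (log2, SE 0.40, adjusted p = 2.20e-08) was the largest of the 52. Cdc25b (ENSMUSG00000027330) was already at 662 to 819 in normal lung and reached 1678 to 4663 in tumors, a log2 fold change of 2.17 (SE 0.24). As a log2 ratio, Cdc25b to Cdc25c fell from 5.72 ± 0.84 to 1.59 ± 0.26 (SD), a difference of -4.13 (exact permutation p = 0.00253, adjusted 0.00505).

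Among the other genes of this role, Ccna2, the cyclin of S phase and early mitosis, changed by 4.23, Aurka, a kinase of the centrosome and spindle poles, by 3.61, Plk1, which acts from mitotic entry to cytokinesis, by 3.65, and Nek2, a kinase of centrosome separation, by 2.25. Plk4, which starts centriole duplication, rose from 81.8 ± 6.12 to 685 ± 200 normalized counts (SD). The log2 ratio of Plk1 to Plk4 was -0.36 ± 0.76 in normal lung and 0.29 ± 0.35 in tumors and overlapped between the groups. That difference, 0.65, missed the threshold (exact permutation p = 0.0808, adjusted 0.0898), although without normal lung 5 the difference of 0.90 passed it.

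All 5 genes of the spindle assembly checkpoint and its target were higher, with log2 fold changes of 4.22 for Ttk, the kinase that recruits the checkpoint proteins to kinetochores, 3.71 for Bub1, 3.42 for Bub1b, which encodes the checkpoint protein BUBR1, and 2.66 for Mad2l1, whose product holds CDC20 inactive. Cdc20, which activates the anaphase-promoting complex once the checkpoint is satisfied, changed by 3.58. Cdc20 (ENSMUSG00000006398) had 133, 130, 245, 166 and 113 normalized counts in normal lung and from 938 (tumor 7) over a median of 1864 to 3635 (tumor 2) in tumors. Mad2l1 (ENSMUSG00000029910) had 126, 125, 153, 185 and 117 in normal lung and 623 to 1142 in tumors, with a median of 839. Cdc20 relative to Mad2l1 (log2 ratio) was at 0.12 ± 0.32 among normal lungs and 1.04 ± 0.35 among tumors. That difference of 0.92 passed the threshold (exact permutation p = 0.00505, adjusted 0.00722), although normal lung 3, at 0.67, overlapped the lowest tumor, at 0.59.

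All 17 kinetochore and centromere genes were higher, with a median log2 fold change of 3.86 and the widest span of any role among the genes that rose, from 0.81 to 5.38. Cenpf changed by 5.38 (SE 0.27, adjusted p = 3.72e-09), with means of 84.7 ± 31.6 (normal lung) and 3542 ± 1251 (tumor) normalized counts, and Cenpe, a kinesin motor that carries chromosomes to the spindle equator, by 4.80 (SE 0.35). The subunits of the NDC80 complex, which binds microtubules, changed by 4.73 (Ndc80), 4.36 (Nuf2), 3.76 (Spc24) and 3.36 (Spc25). Knl1, the scaffold on which BUB1 docks, changed by 4.71.

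Cenpk, Cenph, Cenpi, Cenpm and Cenpn, subunits of the network that sits on centromeric chromatin, changed by 4.69, 4.35, 4.23, 3.86 and 3.84. Cenpp and Cenpt, of the same network, changed by 1.75 (SE 0.21) and 1.66 (SE 0.22). Cenpt (ENSMUSG00000036672) had 293, 192, 257, 241 and 261 normalized counts in normal lung, against 556 to 1242 in tumors, with a median of 785. Cenpa, the histone H3 variant that marks the centromere, changed by 2.68 (SE 0.22), and Hjurp, its chaperone, by 1.94 (SE 0.21). Cenpa relative to Cenpt (log2 ratio) rose from -0.17 ± 0.29 to 0.85 ± 0.39, a difference of 1.02 (exact permutation p = 0.00505, adjusted 0.00722), with tumor 4, at 0.09, inside the normal lung range.

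Zwint (ENSMUSG00000019923), which links KNL1 to the RZZ checkpoint complex, changed least of the genes that rose. It had 998, 1041, 1013, 1196 and 1182 normalized counts in normal lung and from 1408 over a median of 2110 to 2249 in tumors. The groups still did not overlap, and the log2 change was 0.81 (SE 0.14, adjusted p = 2.78e-04). Per kb of annotated exon sequence, Zwint was at 245 normalized counts in normal lung, below only Pttg1 among the 52 genes, and at 434 in tumors, where 12 of them were higher. That length joins all annotated exons of a gene, so ranks between genes per kb depend on which transcripts are annotated.

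The 4 subunits of the chromosomal passenger complex, which corrects wrong spindle attachments and then directs cytokinesis, were all higher. Cdca8, which encodes borealin, changed by 4.57, Birc5, which encodes survivin, by 4.30, Aurkb, the kinase of the complex, by 4.27 and Incenp, its scaffold, by 3.15. Aurkb (ENSMUSG00000020897) ranged over 68.8 to 202 normalized counts in normal lung, against 1264 to 2826 in tumors, with a median of 1880. Aurka relative to Aurkb (log2 ratio) moved from -0.03 ± 0.56 to -0.69 ± 0.17, and the groups overlapped. Its difference of -0.66 passed the threshold (exact permutation p = 0.0202, adjusted 0.0253), but not without normal lung 2 (-0.55), normal lung 4 (-0.51) or normal lung 5 (-0.64), nor without the trachea-titled tumors (-0.60).

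Sister chromatids are held by cohesin until separase, encoded by Espl1, cuts it at anaphase. Securin, encoded by Pttg1, binds separase and keeps it inactive until the anaphase-promoting complex destroys securin. Pttg1 (ENSMUSG00000020415) stood at 513, 649, 572, 729 and 528 normalized counts in the normal lungs. It stood at 39.9, 75.1, 35.7, 44.9, 103, 73.5 and 199 in tumors 1 to 7. Every tumor lay below every normal lung, and the highest tumor value was that of tumor 7, whose leukocyte marker sum lay in the normal lung range and whose part in this value was not tested. The mean fell from 598 ± 90.4 to 81.6 ± 57.1, a log2 change of -3.09 (SE 0.37, adjusted p = 1.03e-05) and the only decrease among the 52 genes. Under the 24 alternatives tried, the log2 fold change ran from -3.43 to -2.65 and stayed past the threshold. Per kb of annotated exon sequence, Pttg1 was the highest of the 52 genes in normal lung, at 299 normalized counts per kb, and the lowest in tumors, at 40.8.

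Espl1 (ENSMUSG00000058290) went the other way. It had 147, 110, 145, 80.4 and 100.02 normalized counts in normal lung, against 1194, 1881, 1156, 1669, 2076, 1786 and 1366 in tumors 1 to 7, changing by 3.76 (log2, SE 0.21, adjusted p = 6.72e-09). Their log2 ratio, Pttg1 to Espl1, moved from 2.37 ± 0.54 (5 normal lungs, SD) to -4.48 ± 0.80 (7 tumors, SD). The groups did not overlap, and the difference of -6.85 was the largest of the 10 pairs (exact permutation p = 0.00253, adjusted 0.00505). Across the fits that left out 1 sample it ran from -7.14 to -6.65.

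**Figure D3:**
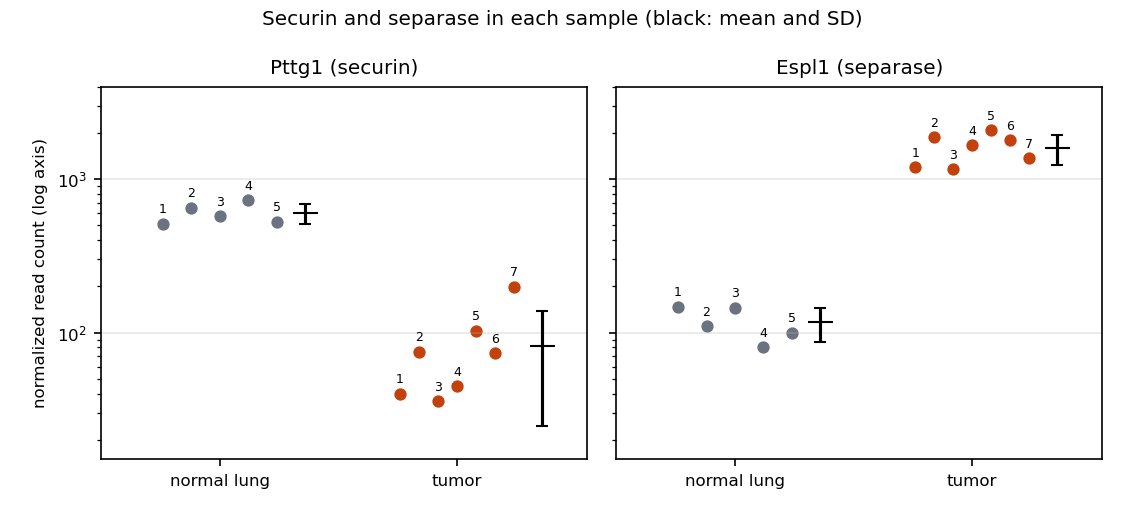
Normalized read counts (log axis) of Pttg1 and Espl1 in each normal lung (grey, numbered 1 to 5) and tumor (orange, numbered 1 to 7), with the mean and SD of each group in black. Pttg1 lies at 513 to 729 in normal lung and 35.7 to 199 in tumors, and Espl1 at 80.4 to 147 and 1156 to 2076.

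The other genes of sister chromatid cohesion rose. Sgo1, the shugoshin that protects centromeric cohesin in mitosis, changed by 4.46, Sgo2a, its relative, by 4.31, and Cdca5, which encodes sororin and stabilises cohesin on replicated DNA, by 3.54. Sgo1 relative to Sgo2a (log2 ratio) was at 0.03 ± 0.54 in normal lung and 0.19 ± 0.28 in tumors, and the difference, 0.16, missed the threshold (exact permutation p = 0.518, adjusted 0.518). Leaving out 1 sample moved it between 0.0016 and 0.37, and a p of that size does not show that they changed alike.

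All 7 condensin and chromosome structure genes were higher, with the highest median log2 fold change of any role, 4.79. Mki67, which coats mitotic chromosomes and is widely used as a marker of cycling cells, changed by 5.22 (log2) and had the highest level of the 52 genes in tumors per length, 1902 normalized counts per kb of annotated exon. It had 538, 375, 1055, 310 and 428 normalized counts in normal lung and from 10402 (tumor 7) over a median of 18876 to 27360 (tumor 5) in tumors. Top2a, the topoisomerase that untangles chromatids, changed by 4.79.

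Condensin I compacts chromosomes after the nuclear envelope opens and condensin II before, and both share the SMC2 and SMC4 motors. The subunits found only in condensin I changed by 4.99 (Ncapg), 4.79 (Ncapd2) and 3.56 (Ncaph). Those found only in condensin II changed by 4.40 (Ncapg2), 2.56 (Ncapd3) and 1.50 (Ncaph2). Ncaph relative to Ncaph2 (log2 ratio), the kleisin subunits of the complexes, rose from -1.71 ± 0.34 to 0.35 ± 0.32, a difference of 2.06 with no overlap (exact permutation p = 0.00253, adjusted 0.00505).

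The 2 motors also changed unequally. Smc2 (ENSMUSG00000028312) had 150, 153, 162, 117 and 138 normalized counts in normal lung, against 1469 to 3237 in tumors, with a median of 2433. Smc4 (ENSMUSG00000034349) had 686, 627, 706, 467 and 531 in normal lung and 2275 to 4486 in tumors, with a median of 3053. Their log2 fold changes were 3.99 (SE 0.19) and 2.37 (SE 0.17), and the log2 ratio of Smc2 to Smc4 rose from -2.05 ± 0.10 to -0.44 ± 0.20 with no overlap (difference 1.62, exact permutation p = 0.00253, adjusted 0.00505).

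**Figure D4:**
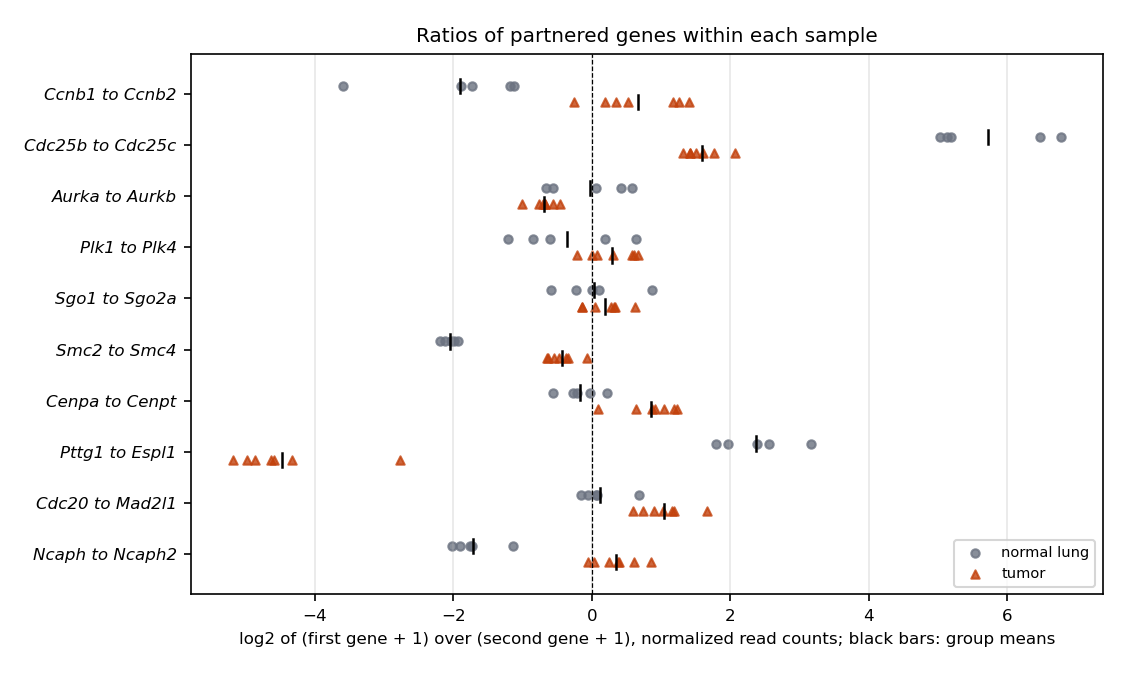
Log2 ratio of 2 partnered genes within each sample (x axis) for 10 pairs, with normal lungs as grey points, tumors as orange triangles and group means as black bars. Groups do not overlap for Ccnb1 to Ccnb2, Cdc25b to Cdc25c, Smc2 to Smc4, Pttg1 to Espl1 and Ncaph to Ncaph2, and Pttg1 to Espl1 moves farthest, by -6.85.

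The 4 genes of spindle assembly and cytokinesis were higher. Racgap1 (ENSMUSG00000023015), a subunit of centralspindlin at the spindle midzone, had 169, 113, 233, 130 and 136 normalized counts in normal lung, against 3163 to 7204 in tumors, with a median of 6125. Its log2 fold change was 5.11 (SE 0.24) and its adjusted p of 1.63e-09 the smallest of the 52 genes. Tpx2, which activates aurora A on the spindle, changed by 4.88, Ect2, the exchange factor that activates RhoA at the cleavage furrow, by 4.32, and Anln, the furrow scaffold anillin, by 3.77.

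Among the genes that rose, the same sample of a group was often the highest or the lowest. How often each sample is highest or lowest over all genes is not given here. Among tumors, tumor 7 was the lowest for 43 of the 51 genes and the highest for none. Tumor 5 was the highest for 28 and tumor 2 for 15. The median log2 value of the 51 genes was 9.32 in tumor 7, 9.79 in tumor 1, and 10.10, 10.13, 10.18, 10.35 and 10.42 in tumors 4, 6, 3, 5 and 2. Tumors 1 and 7 are the trachea-titled ones, and tumor 7 also had the leukocyte and cardiac marker levels given above, whose part in this order was not tested. Tumors 5, 6 and 7 share a title number and lay at different places in the order. Among normal lungs, normal lung 3 was the highest for 40 of the 51 genes, with a median log2 value of 6.83 against 6.08 to 6.22 in the others. Its library was the shallowest, and its 7 leukocyte markers had the highest sum of all samples, 9195. It was also the only normal lung without reads of 4 Y-chromosome genes. The part of each of these in the difference was not tested. The Y-chromosome genes stood at a mean log2 value of 9.18 to 9.43 in the other normal lungs, 9.14 in tumor 1 and 0 to 1.48 in the other tumors. Their level thus differed largely along with the tissue groups. Without normal lung 3, or without tumor 7, the counts remained 51 higher and 1 lower.

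**Figure D5:**
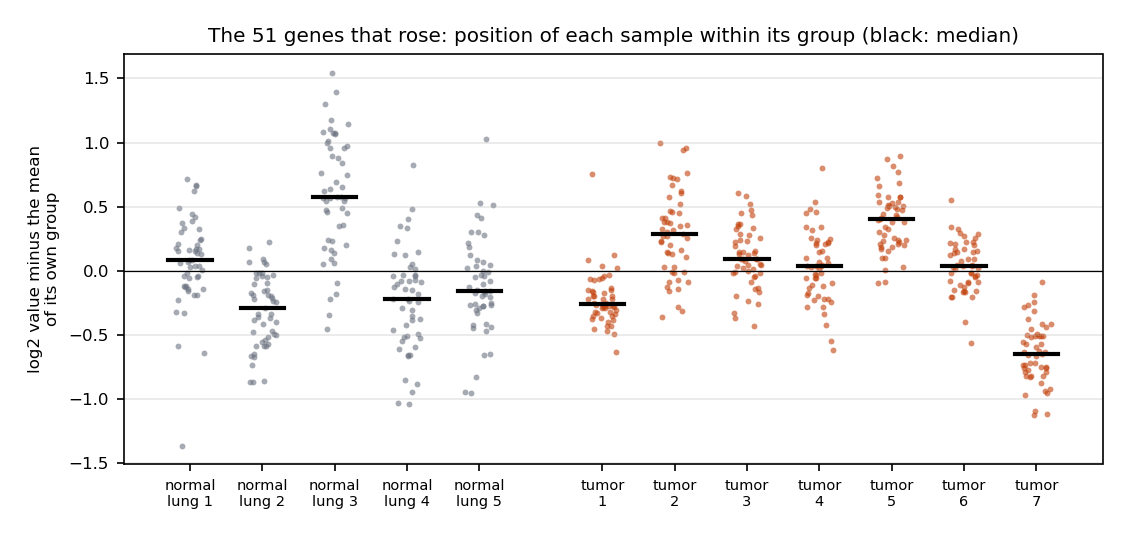
Log2 value of each of the 51 genes that rose minus its mean over the 5 normal lungs (grey) or the 7 tumors (orange), by sample, with the median in black and a line at 0. Normal lung 3 lies above the other normal lungs, and tumor 7 below the other tumors.

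The range across tumors differed between genes, and tumor 7 set the low end of most ranges. With all 7 tumors, the ratio of the highest to the lowest tumor was 5.58 for Pttg1, the gene that fell, 4.23 for Cdk1, 3.87 for Cdc20 and 3.78 for Cdc25c, the widest of the 52. Without tumor 7, a setting chosen after seeing the data, it was 2.88 for both Pttg1 and Cdk1, 2.58 for Cdc20 and 2.11 for Cdc25c, and Ccnb2, at 2.60, ranged more widely than Cdc20. The narrowest ranges with all tumors were those of Cdca5 (1.53-fold), Zwint (1.60-fold) and Cenpm (1.65-fold). Without tumor 7 they were those of Cenpk (1.31-fold), Cenpn (1.32-fold) and Cdca5 (1.38-fold).

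Further mitosis genes outside the list were counted in the same fit. Of 97 tested, 72 were higher, 4 lower and 21 not called, with a median log2 fold change of 1.70. Over all genes tested, 31.4% were called higher and 30.1% lower, which is the background for each list below. Of 25 other kinetochore and centromere genes 22 were higher, led by Ska1 (5.56), Kntc1 (5.43) and Cenps (4.85), and Cenpo, Cenpx and Bod1 were not called. Of 14 genes of condensin II and cohesin 11 were higher, led by Esco2 (4.89), Ncapg2 (4.40) and Ncapd3 (2.56), while Stag2, Wapl and Esco1 were not called. The subunits of the cohesin ring changed by 0.88 (Smc1a), 1.39 (Smc3) and 1.37 (Rad21).

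In a list of 17 genes of the anaphase-promoting complex and its partners, the ubiquitin-conjugating enzymes Ube2c (4.40) and Ube2s (2.58) and the inhibitor Fbxo5, which encodes EMI1 (3.19), had the largest changes. Of these 17 genes 9 were higher and none lower, where 31.4% of all genes were called higher. The 9 include these enzymes, the inhibitor and the activator Fzr1 (1.70), which are not subunits of the complex. The subunits among the 9 were Anapc4 (0.79), Anapc5 (0.91), Anapc7 (0.73), Cdc16 (0.84) and Cdc27 (1.19). The 8 genes not called were all subunits (Anapc1, Anapc2, Anapc10, Anapc11, Anapc13, Anapc16, Cdc23 and Cdc26). Of 17 tested genes of mitotic entry 11 were higher, led by Pbk (5.78), Melk (4.44) and Ccnf (4.21), and Nek6 and Plk3 were not called. The 4 lower ones were Plk2 (-2.01), Nek7 (-1.43), Nek9 (-0.48) and Ensa (-0.37). Plk2 is a stress-induced relative of Plk1. The calls of Nek9 and Ensa were lost under 17 and 14 of the 24 alternatives.

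Of 19 tested spindle and cytokinesis genes 15 were higher, led by Spag5 (5.81), Ckap2 (5.76) and Aspm (4.97), and Numa1, Haus1, Haus2 and Haus3 were not called. Among the regulators of mitotic transcription, Foxm1 changed by 4.61, Mybl2 by 3.76, Lin9 by 3.06 and Lin52 by 0.51, and Lin37 was not called. Lin9, Lin52 and Lin37 all encode DREAM subunits. Foxm1 (ENSMUSG00000001517) rose from a mean of 140 to 3421 normalized counts.

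The annotated spans of 10 of the 52 genes overlap another gene of the table (Ccna2, Cdc20, Cdc25b, Cdca8, Cenpk, Cenpp, Cenpt, Ncapg, Nek2 and Sgo2a). Whether counting used the strand is not given in the sources used here, so their counts are uncertain. The same holds for Ncaph2 of the pair ratios, whose span overlaps 2 genes of the table, and for some other further genes. The span of Pttg1 does not overlap one.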

How the data were processed

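Poly-A RNA sequencing of 5 normal mouse lungs and 7 mouse lung tumors was analysed from 1 table of 30399 genes. It holds read counts that the authors had divided by 1 factor per sample before depositing (a normalized signal, with no division by gene length). The submitters' processing notes name featureCounts, DESeq2 and GRCm39, with no versions or roles. The aligner, the annotation and the use of strand are not given in the sources used here. No header states this unit. It follows from the numbers: 100% of the values of each column were whole multiples of the smallest step (within 0.1 of a step), which is the worth of 1 read. Dividing by it gave reads per gene and the depth. Symbols came from GENCODE release M21 and named 29982 identifiers. Exon lengths and overlaps came from the same release, which is on an earlier build, and no genome coordinates of the table are given. The exon length of a gene joins all its annotated exons and is not the length of 1 transcript.

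Samples were grouped by the tissue label, and replicate numbers only name samples. For the 23674 genes whose mean was 1 or more, log2(value + 1) entered limma 3.58.1 (lmFit, eBayes with trend, R 4.3.3), with Benjamini-Hochberg adjustment over all of them, and called at an adjusted p under 0.05. Log2 ratios of 10 pairs were set between groups with a two-sided exact permutation of samples (scipy 1.17.1), adjusted over the pairs. An eleventh pair needed Bub3 and was not run. The mitotic genes and all lists were chosen with earlier results of these data known. Genes named are the 52, the pairs, the markers and, in each further list, the 3 largest changes, the genes called lower and those not called. Smc1a, Smc3, Rad21, Lin52, Nipbl, Itgb3bp, Fzr1, Anapc4, Anapc5, Anapc7, Cdc16 and Cdc27 fall outside that rule and were named after their values were seen. The limma step was tested on simulated counts. Alternatives covered the pseudocount, the filter, the scaling, shared title numbers, the mean log2 level of 4 Y-chromosome genes as a covariate, and left-out samples. They also covered edgeR 4.0.16 and DESeq2 1.42.0 on recovered reads of 11 samples. Of 18308 genes tested, edgeR called 6384 higher and 4821 lower. The values of tumor 3 were also whole multiples of its step, but it was left out there because that step is close to 1.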

Additional observations from a re-analysis of the deposited data

Results flagged for a closer look

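In 124 sets of values (the log2 values of the 52 genes and the log2 ratios of the 10 pairs, in normal lung and in tumors separately), the highest or lowest sample was set against the others of its group by Dixon's ratio at the 95% level. In 4 sets a sample stood apart, where 6.2 would be expected by chance. Cdk1 was low in normal lung 2, at a log2 value of 4.62 against 5.41 to 5.72 in the other normal lungs. Cenpk was low in tumor 7, at 7.58 against 8.47 to 8.85 in the other tumors. The log2 ratio of Pttg1 to Espl1 was high in tumor 7, at -2.77 against -5.18 to -4.32. The log2 ratio of Cdc20 to Mad2l1 was high in normal lung 3, at 0.67 against -0.15 to 0.07.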

How the results depend on the processing

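Under all 24 alternatives the counts of 51 higher and 1 lower of the 52 genes were the same, no gene of the 52 changed its call or direction, and their median log2 fold change stayed between 3.71 and 4.12. With equal column totals the median log2 fold change of all genes shifted by 0.19, and with edgeR and TMM factors by 0.10. With the Y-chromosome level as a covariate, 5874 of all genes were called higher and 5758 lower, against 7430 and 7124 without it. The count of 4 lower genes among the further mitosis genes was 2 with DESeq2, edgeR with TMM factors, quantile normalization, columns scaled to the same total, and tumors of 1 title number treated as correlated. It ran from 2 to 5 when 1 sample was left out, and was 2 without normal lung 2, 3 or 4 or tumor 4, 5 or 6. Of the 76 called further genes 5 lost their call under some alternative (Nek9, Ensa, Nipbl, Itgb3bp and Lin52), and of the 21 not called 11 gained one and 5 changed sign under some alternative. The ratio of Aurka to Aurkb lost its call without the trachea-titled tumors (-0.60), and ran from -0.81 to -0.51 when 1 sample was left out. That of Plk1 to Plk4 ran from 0.44 to 0.90. The cause was not tested. No paired analysis was possible because the replicate numbers follow the order of listing and the titles share no number between the groups. Depth limits the normal lung values of genes such as Ccnb1 and Cdc25c, whose lowest values lie near the worth of 3 reads.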
